A study of Homo sapiens with 9 samples.

Results

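The genes of the caveolar coat and of its membrane neck were followed across 9 human glioblastoma tumours that grew in mouse brain. They were chosen by name as 8 genes, CAV1, CAV2, CAVIN1, CAVIN2, CAVIN3, EHD2, PACSIN2 and PACSIN3, and all 8 were found among the 18364 genes of the deposited table. Earlier results of these data were known when the genes were chosen. The tumours were raised from LN229 cells, an established line from a human glioblastoma. In the TAZ-4SA group (n = 6) the cells carried a 4SA form of TAZ, the transcriptional co-activator encoded by WWTR1, and in the EV group (n = 3) they carried the empty vector. Both kinds of cells were injected intracranially into nude mice, and the tumours were taken at the terminal stage. The labels give no promoter for the construct, no age of the mice and no link between a tumour and an animal, and they do not say whether each line was 1 clone or a pool, so each p-value reflects only how far these samples spread, which may be technical. The comparison addressed which genes differ when TAZ is active in glioblastoma.

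Caveolae are small flask-shaped pits of the plasma membrane that buffer membrane tension and take part in endocytosis and lipid handling. Caveolin proteins insert into the membrane and form the core of the coat, and cavin proteins assemble around it from the cytosol. EHD2, an ATPase, sits at the neck of the pit, and the F-BAR proteins PACSIN2 and PACSIN3 bind and bend the membrane there. Caveolins and cavins are abundant in endothelial cells, smooth muscle cells, fibroblasts and adipocytes, and CAV1 is known in the Hippo field as a gene that responds to YAP and TAZ in several cell types. TAZ does not bind DNA itself but acts through TEAD transcription factors, which recognise the core GGAATG.

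Promoter windows are printed for both caveolin genes, whose levels differed most in CPM, and for the pair of genes whose windows held the TEAD core. A window covers 250 bases before to 50 bases after an annotated start, and the RefSeq table (GRCh38.p14) held 13 such windows for 5 of the 8 genes: CAV1, CAV2, CAVIN2, EHD2 and PACSIN2. CAVIN1, CAVIN3 and PACSIN3 had no entry. Capitals mark the core GGAATG, which was searched on both strands, so that its reverse complement CATTCC counted too.
CAV1 (chr7:116524759-116525058, plus strand): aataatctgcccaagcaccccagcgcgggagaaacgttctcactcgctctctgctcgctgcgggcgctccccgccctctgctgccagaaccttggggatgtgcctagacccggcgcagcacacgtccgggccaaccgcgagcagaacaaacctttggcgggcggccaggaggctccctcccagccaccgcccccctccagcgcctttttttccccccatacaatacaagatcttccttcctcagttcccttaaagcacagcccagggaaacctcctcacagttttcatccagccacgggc
CAV2 (chr7:116499488-116499787, plus strand): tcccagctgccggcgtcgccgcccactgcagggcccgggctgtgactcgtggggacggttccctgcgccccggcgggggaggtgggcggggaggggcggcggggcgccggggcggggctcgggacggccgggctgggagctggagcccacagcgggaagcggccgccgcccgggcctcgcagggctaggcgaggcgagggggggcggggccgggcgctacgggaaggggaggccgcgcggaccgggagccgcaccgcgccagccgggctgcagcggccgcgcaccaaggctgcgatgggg
CAVIN2 (chr2:191847039-191847338, minus strand): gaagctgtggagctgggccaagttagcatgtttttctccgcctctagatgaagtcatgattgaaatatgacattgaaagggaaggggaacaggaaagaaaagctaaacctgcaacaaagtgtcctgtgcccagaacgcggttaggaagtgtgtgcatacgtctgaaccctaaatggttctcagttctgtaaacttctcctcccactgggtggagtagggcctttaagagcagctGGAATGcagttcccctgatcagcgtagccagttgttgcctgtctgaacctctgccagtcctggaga
PACSIN2 (chr22:42959850-42960149, minus strand): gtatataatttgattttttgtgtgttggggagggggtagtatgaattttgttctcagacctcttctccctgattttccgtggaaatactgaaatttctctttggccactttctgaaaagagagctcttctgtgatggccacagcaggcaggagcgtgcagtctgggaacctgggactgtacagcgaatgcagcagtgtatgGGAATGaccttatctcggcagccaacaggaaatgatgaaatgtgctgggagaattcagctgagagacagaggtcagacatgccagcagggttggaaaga

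The TEAD core was present in 5 of the 13 windows, which belonged to CAVIN2 and PACSIN2. In CAVIN2 it began at position -16 from the start, counted along the gene. In PACSIN2 the printed window held it at position -49, and 3 of the 5 windows with a core are overlapping windows around that same match. No window of CAV1, CAV2 or EHD2 held these letters. The core occurred in 14.0% of the 35116 promoter windows of the table, and the AP-1 motif TGANTCA, searched on both strands, in 7.71% of them and in 0 of the 13. A match describes letters in a window, and its absence here concerns only these windows.

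The deposited values were log2 CPM, that is, read counts scaled to a common library size, and whole reads could be recovered from them. The CPM of a tumour summed to between 923378 and 1131060, so the counts were not scaled by read totals alone. The TAZ-4SA tumours had 3144861 to 31468135 reads, with tumours 5 and 6 the shallowest, and the EV tumours had 17314672 to 21576264. Genes without a read numbered 2990 to 7365 per TAZ-4SA library and 505 to 622 per EV library, and none of the 8 caveolar genes had 0 reads in any tumour. WWTR1, the gene of the construct, had 218 to 449 CPM in TAZ-4SA tumours and 116 to 123 CPM in EV tumours, a log2 difference of 1.44 (exact permutation test, two-sided, 84 arrangements, p = 0.02381, the smallest it can give). With any 1 EV tumour left out, the exact permutation test gave p = 0.07143, the smallest those sizes allow. Differences between groups were tested with limma on the log2 values of the 15578 genes whose mean reached 1 CPM, with Benjamini-Hochberg adjusted p-values under 0.05 called, and fold changes are TAZ-4SA minus EV on the log2 scale. The median fold change over all genes tested was -0.85, and the spread between tumours was wider in TAZ-4SA, with a median SD of log2 CPM of 1.50 against 0.27 in EV.

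Of the 8 caveolar genes, CAV1, CAV2, CAVIN1, CAVIN2, CAVIN3 and EHD2 rose in TAZ-4SA tumours, none fell, and PACSIN2 and PACSIN3 did not pass the test. Without EV tumour 1 the number that rose was 3, CAV1, CAV2 and CAVIN2. Over all genes tested, 1405 rose (9.02%) and 2079 fell (13.3%), and 827 rose and 872 fell without EV tumour 1. After quantile normalization that split was 1920 higher and 1624 lower. The groups did not overlap for the same 6 genes on the higher side and for PACSIN3 on the lower side, against 10.8% and 21.3% of all genes tested on the higher and the lower side. The median fold change of the 8 genes was 1.59, and the genes were chosen with earlier results of these data known. In bulk tumours fewer cells of a type and less RNA per cell cannot be told apart for any of these genes. CAVIN2 passed the filter on low values only through the TAZ-4SA tumours, since its EV level lay under 1 CPM. With no filter it was also called, and 6 of the 8 genes rose, beside 1507 of all 18364 genes.

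**Figure D1:**
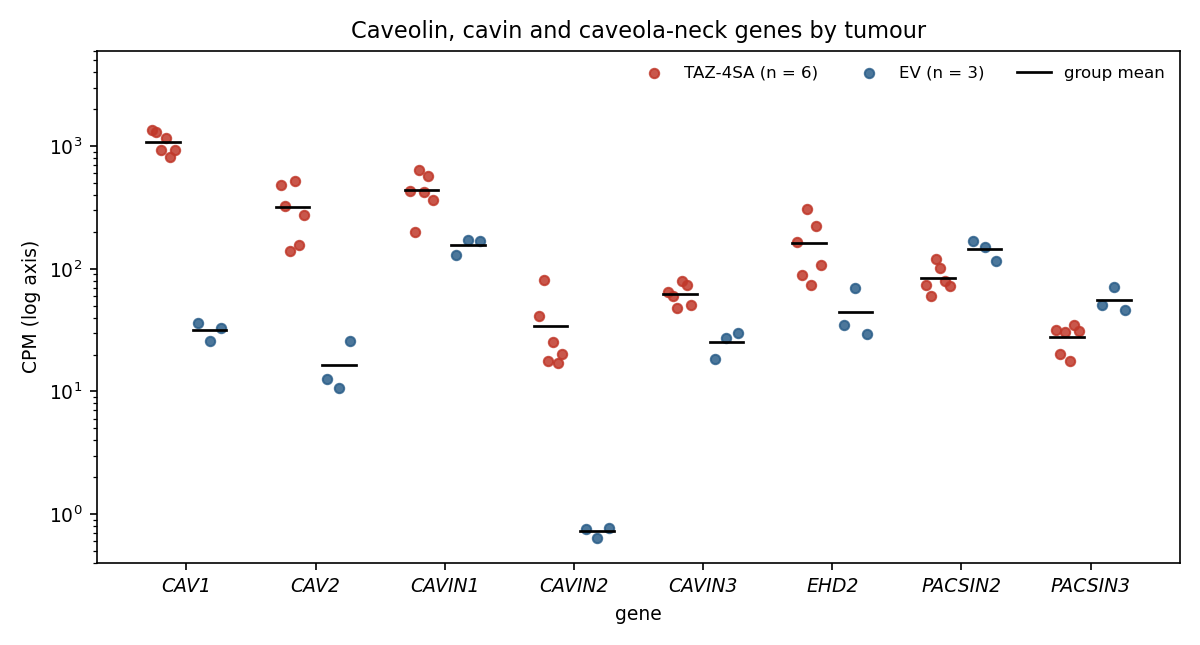
Level of each of the 8 genes in CPM on a log axis, with 1 point for each TAZ-4SA tumour (n = 6, left of each pair) and each EV tumour (n = 3, right), and a black line at the group mean. CAV1 lies between 819 and 1361 CPM in TAZ-4SA and between 25.9 and 36.4 CPM in EV, while PACSIN2 is the gene whose groups overlap.

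CAV1, which encodes the main structural protein of the caveolar coat, was the highest in CPM of the 8 genes in TAZ-4SA tumours. It is protein-coding and lies on chromosome 7 (GRCh38, chr7:116525009-116561185). CAV1 had a lowest value of 819, a median of 1049.7 and a highest value of 1361 CPM in TAZ-4SA tumours, against 36.4, 25.9 and 33.2 CPM in EV tumours. Every TAZ-4SA tumour lay far above every EV tumour, and the TAZ-4SA values varied little among themselves. CAV1 averaged 1083 ± 222 CPM in TAZ-4SA (SD, n = 6) and 31.8 ± 5.34 CPM in EV (SD, n = 3), a ratio of 34.0. Its log2 fold change was 5.07 (SE 0.25, 95% CI 4.52 to 5.62, limma adjusted p = 1.446e-07), which ranked 84th in size among the rises and 9th by p among the 15578 genes.

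CAV2, the partner that forms hetero-oligomers with caveolin-1, ends 16467 bases before CAV1 starts (chr7:116499738-116508541). CAV2 had 139 to 519.6 CPM with a median of 301 CPM in TAZ-4SA tumours, against 12.7, 10.7 and 25.6 CPM in EV tumours. The groups did not overlap, and CAV2 varied more between TAZ-4SA tumours than CAV1 did, with an SD of log2 CPM of 0.80 against 0.30. Its mean was 317 ± 160 CPM in TAZ-4SA (SD, n = 6) and 16.3 ± 8.08 CPM in EV (SD, n = 3), and its log2 fold change was 4.20 (SE 0.47, 95% CI 3.17 to 5.22, limma adjusted p = 0.0001023). TAZ-4SA tumours 1, 2 and 4 held the 3 highest values of both caveolin genes. An antisense gene overlaps CAV2, and the library chemistry keeps no strand, so reads of the pair cannot be told apart.

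CAVIN1, the cavin that caveolae need in order to form, had a smaller fold change than the caveolins, with a confidence interval below theirs. It lies on chromosome 17 (chr17:42402449-42423256). CAVIN1 had 199 to 643 CPM with a median of 427 CPM in TAZ-4SA tumours, against 130.0, 171 and 169 CPM in EV tumours. The groups did not overlap, although TAZ-4SA tumour 2 at 199 CPM came close to the highest EV tumour. The means were 439.8 ± 157 CPM in TAZ-4SA (SD, n = 6) and 157 ± 23.2 CPM in EV (SD, n = 3), a ratio of 2.80, and the log2 fold change was 1.41 (SE 0.34, 95% CI 0.66 to 2.15, limma adjusted p = 0.01202). That call was lost without EV tumour 1 (limma adjusted p = 0.06815).

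CAVIN2, which encodes a phosphatidylserine-binding cavin known in endothelial caveolae, was nearly undetected in EV tumours. It lies on chromosome 2 (chr2:191834310-191847088). CAVIN2 had 41.6, 81.3, 17.8, 25.5, 17.1 and 20.2 CPM in TAZ-4SA tumours 1 to 6, against 0.750, 0.640 and 0.774 CPM in EV tumours, where those levels stand for 16, 11 and 12 reads. The lowest TAZ-4SA value, 17.1 CPM from 61 reads, was above every EV value. The mean was 33.9 ± 24.9 CPM in TAZ-4SA (SD, n = 6) and 0.721 ± 0.0715 CPM in EV (SD, n = 3), with a log2 fold change of 5.05 (SE 0.93, 95% CI 3.03 to 7.07, limma adjusted p = 0.002572). The size depended on the scale, at 3.50 with 2 CPM added before taking logs and 6.77 after quantile normalization. An antisense gene overlaps CAVIN2 too.

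CAVIN3, whose protein binds protein kinase C delta and joins the cavin complex with CAVIN1, also rose. It lies on chromosome 11 (chr11:6318946-6320501) and overlaps a gene on the opposite strand. CAVIN3 had 48.2 to 79.1 CPM with a median of 62.3 CPM in TAZ-4SA tumours, against 18.5, 27.5 and 30.0 CPM in EV tumours. The groups did not overlap. CAVIN3 averaged 62.8 ± 12.5 CPM in TAZ-4SA (SD, n = 6) and 25.3 ± 6.04 CPM in EV (SD, n = 3), with a log2 fold change of 1.31 (SE 0.34, 95% CI 0.56 to 2.06, limma adjusted p = 0.01747). The call was lost without EV tumour 1 (adjusted p = 0.1309) and without EV tumour 2 (adjusted p = 0.07225, both limma).

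EHD2, the ATPase that stabilises caveolae at the membrane by oligomerising around the neck, lies on chromosome 19 (chr19:47713422-47743134). EHD2 had 165, 89.0, 309, 73.6, 224 and 108 CPM in TAZ-4SA tumours 1 to 6, against 34.9, 70.2 and 29.3 CPM in EV tumours. TAZ-4SA tumour 4 at 73.6 CPM and EV tumour 2 at 70.2 CPM almost met, and the groups did not overlap. Its mean was 161 ± 91.2 CPM in TAZ-4SA (SD, n = 6) and 44.8 ± 22.2 CPM in EV (SD, n = 3), and its log2 fold change was 1.77 (SE 0.48, 95% CI 0.73 to 2.81, limma adjusted p = 0.02048). EHD2 lost its call without EV tumour 1 (adjusted p = 0.08606), without EV tumour 3 (adjusted p = 0.09531) and without TAZ-4SA tumours 5 and 6 together (adjusted p = 0.07118, all limma). EHD2 and CAVIN1 shared their 3 highest TAZ-4SA tumours, which were 1, 3 and 5, and tumours 3 and 5 were the 2 lowest for CAV2.

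The F-BAR genes had negative fold changes that did not pass the test. PACSIN2, whose protein shapes caveolae and also works in endocytosis and actin control elsewhere in the cell, had 60.6 to 121 CPM with a median of 76.8 CPM in TAZ-4SA tumours, against 168, 152 and 116 CPM in EV tumours. TAZ-4SA tumour 3 at 121 CPM lay above EV tumour 3 at 116 CPM, so the groups overlapped. PACSIN2 averaged 84.7 ± 22.2 CPM in TAZ-4SA (SD, n = 6) and 145 ± 26.6 CPM in EV (SD, n = 3), with a log2 fold change of -0.80 (SE 0.30, 95% CI -1.46 to -0.13, limma adjusted p = 0.07978). That value lies close to the median of all genes, since 51.3% of the genes tested had a lower one. PACSIN2 did pass the test without TAZ-4SA tumour 3 (limma adjusted p = 0.03442). It lies on chromosome 22 (chr22:42869766-43015149) and overlaps ARFGAP3 on the same strand.

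PACSIN3, the paralog best known in muscle caveolae, lies on chromosome 11 (chr11:47177522-47186434). PACSIN3 had 17.7 to 35.0 CPM with a median of 30.8 CPM in TAZ-4SA tumours, against 50.5, 70.8 and 45.8 CPM in EV tumours. All 6 TAZ-4SA values lay below all EV values. The mean was 27.7 ± 6.98 CPM in TAZ-4SA (SD, n = 6) and 55.7 ± 13.3 CPM in EV (SD, n = 3), with a log2 fold change of -1.02 (SE 0.39, 95% CI -1.88 to -0.16, limma adjusted p = 0.08249), and 46.6% of the genes tested had a lower value. Without TAZ-4SA tumour 5 PACSIN3 passed the test (limma adjusted p = 0.04208).

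**Figure D2:**
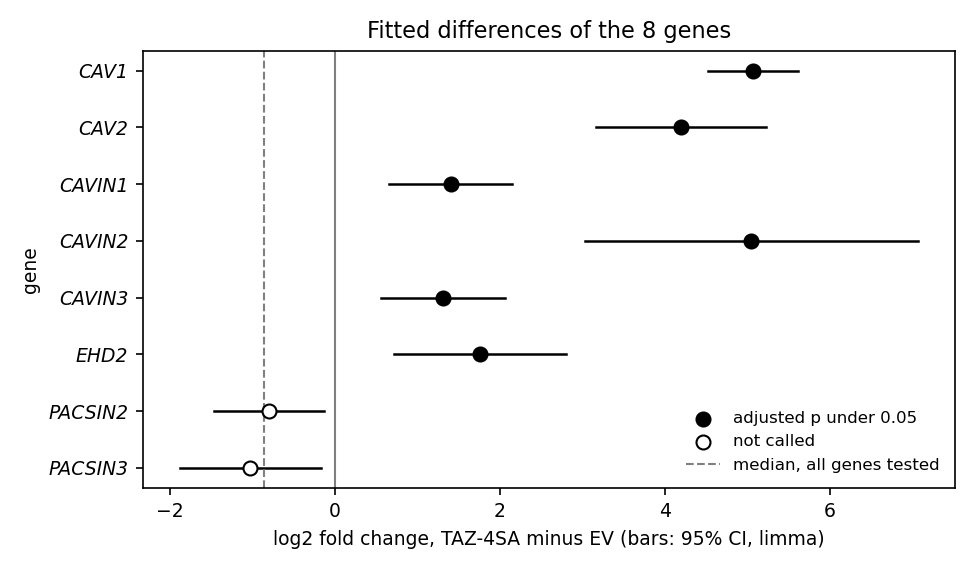
Log2 fold change (TAZ-4SA minus EV) of each of the 8 genes with its 95% confidence interval from limma; filled points passed an adjusted p of 0.05, open points did not, and the dashed line is the median of all genes tested (-0.85). CAV1, CAV2 and CAVIN2 lie at 4.20 to 5.07, CAVIN1, CAVIN3 and EHD2 at 1.31 to 1.77, and PACSIN2 and PACSIN3 near the dashed line.

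Levels of different genes were compared per kilobase of transcript, using the median length of the protein-coding transcripts of each gene. In TAZ-4SA tumours the order of mean CPM per kb was CAV1 at 427, CAV2 at 268, CAVIN1 at 115, EHD2 at 60.3, CAVIN3 at 58.9, PACSIN2 at 27.5, PACSIN3 at 14.4 and CAVIN2 at 10.5. Ranges over tumours overlapped between neighbours in this order except between CAVIN3 (45.2 to 74.2) and PACSIN2 (19.7 to 39.3) and between PACSIN2 and PACSIN3 (9.18 to 18.2). In EV tumours the order was PACSIN2 at 47.1, CAVIN1 at 41.0, PACSIN3 at 28.9, CAVIN3 at 23.8, EHD2 at 16.7, CAV2 at 13.9, CAV1 at 12.6 and CAVIN2 at 0.223 CPM per kb, and neighbours overlapped except CAV1 (10.2 to 14.3) and CAVIN2 (0.198 to 0.240). The caveolin genes therefore stood first in TAZ-4SA tumours and near the end in EV tumours. The place of CAV2 rests on its length: with its longest transcript it had 95.9 CPM per kb in TAZ-4SA, behind CAVIN1 at 115, and 4.95 in EV.

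Because the caveolins differed between groups by more than CAVIN1 did, the proportions within a tumour differed as well. CAVIN1 per CAV1, a ratio of CPM that does not depend on library size, was 0.315, 0.153, 0.697, 0.366, 0.703 and 0.392 in TAZ-4SA tumours 1 to 6, against 3.58, 6.60 and 5.10 in EV tumours. The groups were far apart, with a mean of 0.438 ± 0.220 in TAZ-4SA (SD, n = 6) and 5.09 ± 1.51 in EV (SD, n = 3). EHD2 per CAV1 also did not overlap, at 0.163 ± 0.114 in TAZ-4SA and 1.52 ± 1.03 in EV. CAVIN2 per CAVIN1 lay higher in TAZ-4SA tumours without overlap, at 0.0277 to 0.409 against 0.00374 to 0.00577 in EV tumours. The groups overlapped for the other 3 ratios computed. CAV2 per CAV1 was 0.281 ± 0.109 in TAZ-4SA and 0.511 ± 0.227 in EV, and CAVIN3 per CAVIN1 was 0.163 ± 0.0766 in TAZ-4SA and 0.160 ± 0.0173 in EV. EHD2 per CAVIN1 was 0.361 ± 0.112 in TAZ-4SA and 0.284 ± 0.120 in EV. These ratios repeat the levels above and were not tested.

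**Figure D3:**
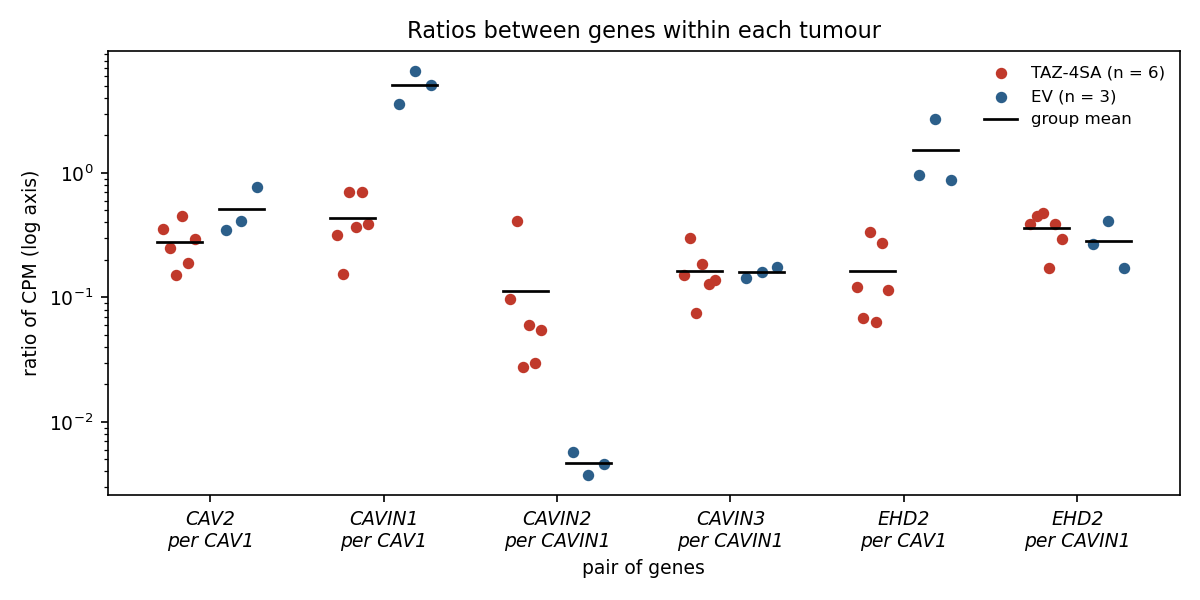
Ratio of the CPM of 2 genes within each tumour on a log axis, with TAZ-4SA tumours (n = 6) left of EV tumours (n = 3) in each pair and a black line at the group mean. CAVIN1 per CAV1 averages 0.438 in TAZ-4SA and 5.09 in EV, whereas CAVIN3 per CAVIN1 averages 0.163 in TAZ-4SA and 0.160 in EV.

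The profile of each gene over the 9 tumours, centred on its own mean, was set against those of the 11999 genes whose mean reached 5 CPM. The 5 genes with the smallest root mean square difference from CAV1 in log2 CPM were F2R, a thrombin receptor (0.26), the kinase gene PRKCH (0.27), the presynaptic scaffold gene PCLO (0.29), the protease gene ADAMTS5 (0.30) and F3, which encodes tissue factor (0.30). F2R had 548 ± 77.2 CPM in TAZ-4SA (SD, n = 6) and 15.4 ± 1.12 CPM in EV (SD, n = 3). Of the other caveolar genes CAVIN2 ranked 23rd (0.48) and CAV2 74th (0.66) in likeness to CAV1, whereas CAVIN1 ranked 1487th (1.84). Nearest to CAVIN1 were BCL2L1, an anti-apoptotic gene (0.15), EIF2AK4, a stress kinase gene (0.21), ANXA2P2, a pseudogene that can share reads with ANXA2 (0.23), EHD4, a paralog of EHD2 (0.23), and IGFBP4, which encodes a binding protein of insulin-like growth factors (0.24). CAVIN3 ranked 250th (0.50) and EHD2 314th (0.53) in likeness to CAVIN1. The 9 points hold the difference between groups, so this measure largely repeats the fold changes given above, and the far rank of CAVIN1 from CAV1 follows mostly from them. PRKCH, ADAMTS5, F3 and CAVIN2 had EV means of 0.479, 3.52, 4.17 and 0.721 CPM. They reached the mean of 5 CPM only through the TAZ-4SA tumours.

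Since CAV1 and CAV2 are neighbours, genes starting within 1000000 bases of CAV1 were examined, a window chosen after the values were seen. It held 12 measured genes, of which 9 were tested: 5 rose, 0 fell and 4 did not pass. Over all genes tested 9.02% rose and 13.3% fell. CAV1 and CAV2 were known to rise before the window was placed, so their rises were fixed in advance. The 5 were CAV1, CAV2, MET, CAPZA2 and the long noncoding RNA LOC102724434. LOC102724434 and TES, which did not pass the test, met the filter on low values only through the TAZ-4SA tumours. A fall could therefore hardly be called for either, and the count is not a fair match for the shares over all genes. MET, the receptor of hepatocyte growth factor, starts 111010 bases after CAV1 ends. Its level was 160.3 to 232 CPM in TAZ-4SA tumours, against 4.36, 5.87 and 7.09 CPM in EV tumours, with a log2 fold change of 5.02 (SE 0.31, limma adjusted p = 7.293e-07). CAPZA2, an actin capping gene, reached 68.8 ± 19.0 CPM in TAZ-4SA (SD, n = 6) and 31.2 ± 2.93 CPM in EV (SD, n = 3), and its log2 fold change of 1.09 (limma adjusted p = 0.04201) was not called without TAZ-4SA tumour 1, 4 or 6 or without any 1 EV tumour (adjusted p 0.05847 to 0.1813). LOC102724434 had 0.202 to 23.1 CPM in TAZ-4SA tumours and 0 reads in every EV tumour, and was not called without any 1 EV tumour (limma adjusted p 0.09994 to 0.1136). TES, which lies before CAV2, had 0 reads in 3 TAZ-4SA tumours and up to 16.2 CPM in the others, against 0.322 to 0.422 CPM in EV tumours. ST7 had 1.60 to 65.0 CPM in TAZ-4SA tumours, against 25.8 to 34.8 CPM in EV tumours. ST7 overlaps ST7-AS1, whose reads cannot be separated from it without strand.

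**Figure D4:**
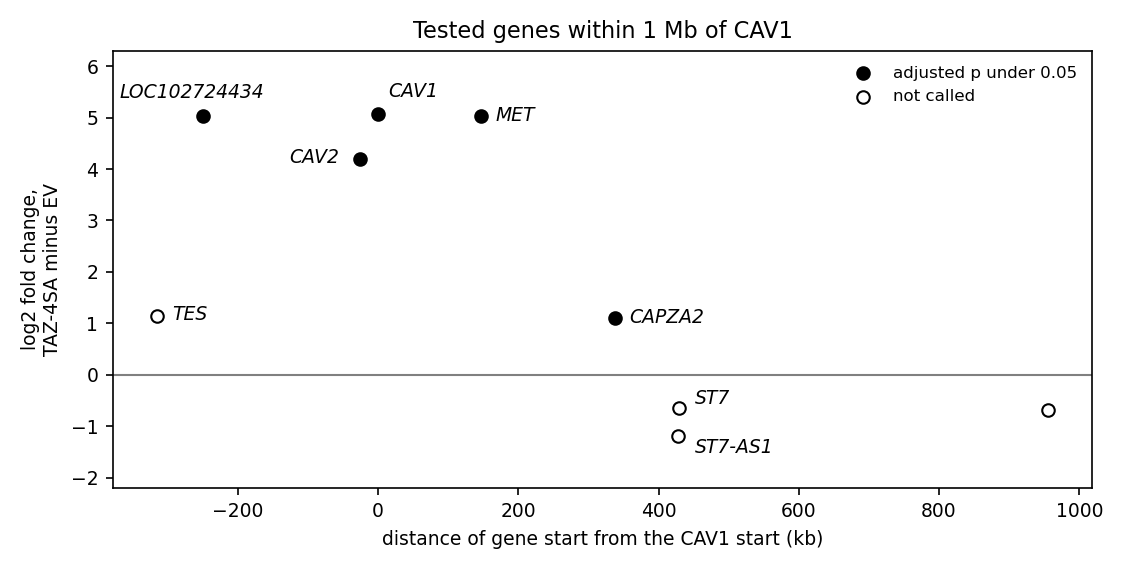
Log2 fold change (TAZ-4SA minus EV) of the 9 tested genes within 1 Mb of CAV1 against the distance of their start from the CAV1 start in kb; filled points passed an adjusted p of 0.05 in limma, and the unlabelled open point is a protein-coding gene that did not. LOC102724434, CAV2, CAV1 and MET lie at 4.20 to 5.07, and the value of LOC102724434 depends on the added prior because it had 0 reads in EV tumours.

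Of 9 other caveola-linked genes and paralogs 8 were measured and 7 tested, of which 2 rose, 1 fell and 4 did not pass. Their median fold change was -0.27, above the -0.85 of all genes tested, of which 9.02% rose and 13.3% fell. EHD4, an endosomal ATPase, had 145 ± 41.0 CPM in TAZ-4SA (SD, n = 6) and 51.2 ± 12.1 CPM in EV (SD, n = 3), with a log2 fold change of 1.47 (limma adjusted p = 0.007307) that was not called without EV tumour 1 (adjusted p = 0.05225). ROR1, a receptor tyrosine kinase reported to hold CAVIN1 and CAV1 together, had 39.2 ± 21.2 CPM in TAZ-4SA tumours and 9.38 ± 5.17 CPM in EV tumours. Its log2 fold change was 2.05 (limma adjusted p = 0.02121), and it was not called without EV tumour 1 (0.09236) or EV tumour 2 (0.1087). EHD3, a further endosomal paralog, fell to 38.8 ± 15.4 CPM in TAZ-4SA, against 139 ± 6.93 CPM in EV (limma adjusted p = 0.01049). The muscle genes were low: CAV3 had reads in a single tumour, TAZ-4SA tumour 5 at 1.12 CPM, and 0 reads in every EV tumour, and CAVIN4 had up to 16.5 CPM in TAZ-4SA tumours and 0.937 to 1.34 CPM in EV tumours.

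Flotillins, other carriers that work without clathrin and GPI-anchored cargo gave 1 rise, 1 fall and 8 genes that did not pass among 10 tested. There were 2 falls without TAZ-4SA tumour 2, beside 2100 of all 15578 genes tested. The median fold change of this list was -0.17, against -0.85 over all genes tested, of which 9.02% rose and 13.3% fell. With all tumours both called genes were cargo, CD59 and CD55, and FLOT1 was not measured. FLOT2 had 28.8 ± 26.8 CPM in TAZ-4SA (SD, n = 6), with 0.303 CPM in tumour 2, against 106 ± 16.2 CPM in EV (SD, n = 3). Its groups did not overlap, as for 21.3% of all genes tested on the lower side. Its log2 fold change of -2.89 did not pass the test (limma adjusted p = 0.1163). CD59, a GPI-anchored complement inhibitor and common cargo of this route, fell to 121 ± 29.8 CPM in TAZ-4SA (SD, n = 6), against 334 ± 14.4 CPM in EV (SD, n = 3), with a log2 fold change of -1.49 (limma adjusted p = 0.00249). CD55, also GPI-anchored, had 133 ± 69.3 CPM in TAZ-4SA tumours and 32.2 ± 6.36 CPM in EV tumours, with overlapping groups. Its log2 fold change of 1.80 (limma adjusted p = 0.03479) was not called without TAZ-4SA tumour 1, 2, 3 or 4 or without any 1 EV tumour (adjusted p 0.05652 to 0.1233).

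Of 30 clathrin-coated pit genes, all tested, 5 rose, 2 fell and 23 did not pass, beside 9.02% higher and 13.3% lower over all genes. The list's median fold change was -0.69, against -0.85 over all genes tested. CLTC, the clathrin heavy chain, had 455 to 721 CPM in TAZ-4SA tumours, against 194, 182 and 162 CPM in EV tumours, with a log2 fold change of 1.60 (limma adjusted p = 0.000497). DAB2, an adaptor for integrins and lipoprotein receptors, had 105 to 253 CPM in TAZ-4SA tumours, against 32.5, 29.1 and 31.7 CPM in EV tumours, with a log2 fold change of 2.49 (limma adjusted p = 0.000213). The groups did not overlap for either gene. AAK1, a kinase of the AP-2 adaptor, had a log2 fold change of 2.11 (limma adjusted p = 0.00051), and EPS15, an endocytic scaffold, one of 2.35 (limma adjusted p = 0.000843). The fifth gene that rose was the adaptor PICALM at 1.65 (limma adjusted p = 0.00256), and HIP1 and AMPH fell; these 3 were named after their values were seen. HIP1 was not called without EV tumour 1 (limma adjusted p = 0.09046) or EV tumour 2 (0.07231), and AMPH, with an adjusted p of 0.04996, was not called without TAZ-4SA tumour 1, 2 or 4 or without any 1 EV tumour (0.07139 to 0.1676). Without TAZ-4SA tumour 5 there were 4 falls in this list, beside 2688 of all 15578 genes tested.

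**Figure D5:**
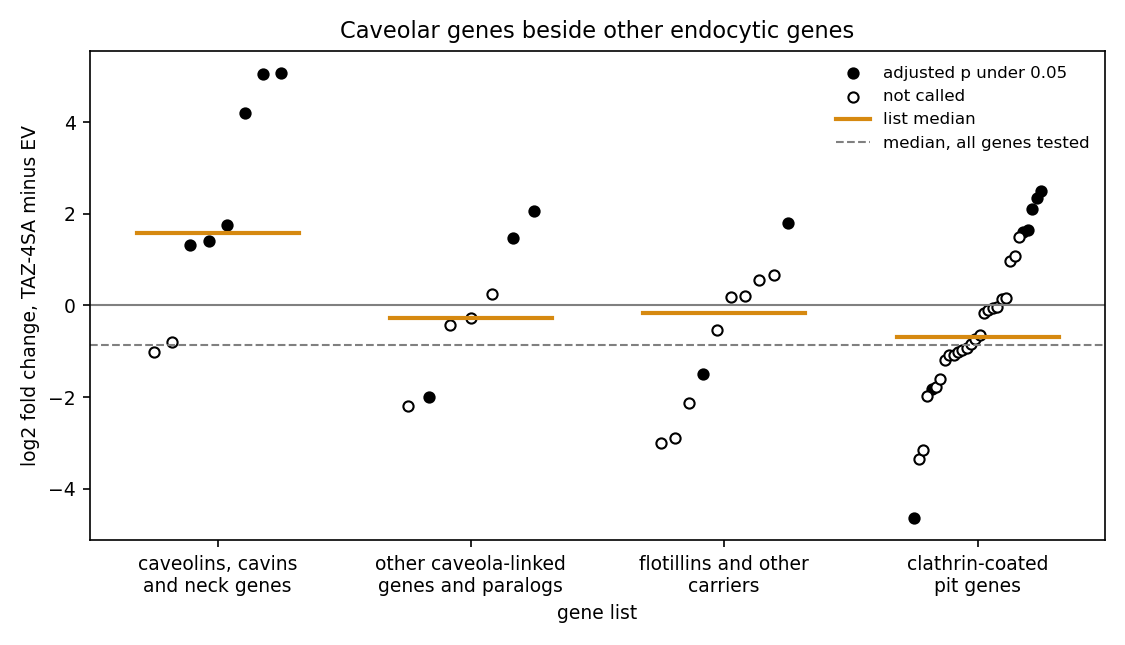
Log2 fold change (TAZ-4SA minus EV) of each tested gene of 4 lists, with the 8 caveolar genes first; filled points passed an adjusted p of 0.05 in limma, the orange line is the list's median and the dashed line the median of all genes tested (-0.85). The medians are 1.59 for the 8 genes, -0.27 for other caveola-linked genes, -0.17 for flotillins, other carriers and GPI-anchored cargo and -0.69 for coated-pit genes.

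Cells other than tumour cells express caveolar genes too, so their markers were read in the same libraries. Endothelial markers, 11 of 12 measured, summed to 0.101 to 149 CPM in TAZ-4SA tumours and 53.4 to 61.7 CPM in EV tumours, and of the 5 tested 0 rose and 1, ERG, fell. Over all genes tested 9.02% rose and 13.3% fell. ERG had 0 reads in 5 of the 6 TAZ-4SA tumours and an EV mean of 3.34 CPM. It passed the filter on low values only through the EV tumours, so it could hardly be called higher. ERG was not called without any 1 EV tumour (limma adjusted p 0.05045 to 0.1018) or after quantile normalization (0.2094). PLVAP and EMCN had 0 reads in all 6 TAZ-4SA tumours, and PECAM1, CDH5 and KDR had 0 reads in 5 of the 6. These genes were low in EV tumours too. Their EV means were 1.89 CPM for PLVAP, 0.679 for EMCN, 0.487 for PECAM1, 0.0624 for CDH5 and 1.16 for KDR. CDH5 reached 4.43 CPM in TAZ-4SA tumour 1. The sums in TAZ-4SA tumours 3 and 5 came mostly from TIE1, at 143 and 97.4 CPM, against 1.41 to 1.87 CPM in EV tumours. The vessels of the host are of mouse origin and how mouse reads were handled is not given, so reads of human markers may not measure host cells of this or the following types.

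Pericyte, smooth muscle and fibroblast markers, 11 measured, summed to 364 to 632 CPM in TAZ-4SA tumours and 711 to 1139.9 CPM in EV tumours. MCAM was the largest part of these sums, at 156 to 333 CPM in TAZ-4SA tumours and 474 to 874 CPM in EV tumours. Of the 10 tested, LUM rose to 110.2 ± 40.3 CPM in TAZ-4SA, against 14.8 ± 4.32 CPM in EV, and MCAM and KCNJ8 fell. Over all genes tested 9.02% rose and 13.3% fell. KCNJ8 had 0 reads in 5 of 6 TAZ-4SA tumours and an EV mean of 5.76 CPM. It passed the filter only through the EV tumours, so it could hardly be called higher. MCAM was not called without EV tumour 3 (limma adjusted p = 0.06678), nor KCNJ8 without any 1 EV tumour (limma adjusted p 0.05012 to 0.08708). Myeloid markers, 6 measured, summed to 54.7 to 142 CPM in TAZ-4SA tumours and 16.1 to 25.6 CPM in EV tumours. The sums came mainly from CD68, with 88.2 ± 38.2 CPM in TAZ-4SA tumours and 16.4 ± 5.51 CPM in EV tumours. CD68 alone rose among 4 tested, beside 9.02% of all genes tested. P2RY12 had 0 reads in all TAZ-4SA tumours and only 0.0581 to 0.193 CPM in EV tumours. PTPRC had 0 reads in 5 of 6 TAZ-4SA tumours and 12.4 CPM in tumour 2, against 0 to 0.0581 CPM in EV tumours. Among 6 glioma and glial markers VIM was high throughout, at 1480.0 to 2910.3 CPM in TAZ-4SA tumours and 1616 to 2092 CPM in EV tumours. NES fell to 158 ± 60.5 CPM in TAZ-4SA, against 1324 ± 35.1 CPM in EV, and S100B fell to 2.95 ± 4.43 CPM in TAZ-4SA, with 0 reads in 3 tumours, against 208 ± 43.4 CPM in EV. Whether these shifts, or the uneven depth of the TAZ-4SA libraries, have a part in the differences of the caveolar genes was not tested. When the shallowest libraries, TAZ-4SA tumours 5 and 6, were omitted, 5 of the 8 genes rose and EHD2 lost its call (limma adjusted p = 0.07118). Of all 15578 genes tested, 1450 rose and 2758 fell in that fit. When tumours 2, 3 and 4 were omitted, whose libraries detected the fewest genes, 6 of the 8 rose. Of all genes tested, 1893 rose and 2256 fell in that fit.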

How the data were processed

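Total RNA was extracted with TRIzol, and libraries were made with the SMART-Seq mRNA HT kit and Nextera XT, which keep no strand, per the labels' protocols. HISAT2, edgeR and GRCh38 are listed without roles or versions, per the submitters' processing notes. How reads were counted, on which annotation, after which gene filter, and how mouse reads were handled is not given in the sources used here. A single table was deposited by the authors, and its values were read from their range as log2 CPM with a prior of 0.145 CPM. CPM printed here are these values on the linear scale less the prior, and 100% of values under 5000 reads came out whole within 0.1 read.

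Groups came from the labels. The log2 values were fitted with limma 3.58.1 (R 4.3.3; trend, robust) for the 15578 genes whose mean reached 1 CPM, prior included, and p-values were Benjamini-Hochberg adjusted over all of them. The fit was tested on simulated data. WWTR1 had an exact permutation test. The alternatives were other pseudocounts, filters, scalings, weights and voom on the recovered reads, leaving out tumours, and a replicate block. Replicate numbers were not taken to pair the tumours, since the labels state no pairing. The 8 genes and the lists were chosen with earlier results of these data known. Of each list, counts and up to 4 called genes with the smallest p are given, and of genes resembling CAV1 or CAVIN1 the nearest 5. Coordinates and promoters are from RefSeq (GRCh38.p14), transcript lengths and overlaps from GENCODE 29. Reads are not independent molecules, so low counts carry more than counting error.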

Additional observations from a re-analysis of the deposited data

Results flagged for a closer look

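CAVIN2 per CAVIN1 was 0.409 in TAZ-4SA tumour 2, against 0.0277 to 0.0971 in the other TAZ-4SA tumours and 0.00374 to 0.00577 in EV tumours. Tumour 2 stood apart because its gap to the next tumour was 0.818 of the range of the 6, above Dixon's critical value of 0.625. It held the highest CAVIN2 and the lowest CAVIN1 of its group, at 81.3 and 199 CPM. Altogether 15 groups of 6 values were checked, and chance marks about 1 in 20.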

How the results depend on the processing

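Over 23 alternatives and 8 genes, 164 of 184 comparisons kept the direction and the side of the threshold, 12 lost a call, 8 gained one and 0 reversed. CAV1 (4.93 to 5.22) and CAV2 (3.95 to 4.58) were called in all 23. With 1 tumour left out, 3 to 6 of the 8 genes were called higher and 0 to 1 lower, 799 to 1685 of all genes were higher and 852 to 2688 lower, with the fewest without EV tumours 1 (827 and 872), 2 (799 and 852) and 3 (990 lower), WWTR1 differed by 1.34 to 1.55, and ST7 lay between -1.01 and 0.035. The genes called lower among the 8 were 1 with median-of-ratios scaling (PACSIN2), 1 without TAZ-4SA tumours 2, 3 and 4 (PACSIN2), 1 without tumours 5 and 6 (PACSIN3), 1 with voom (PACSIN3) and 2 with array weights. Of all genes, 2531 were called higher and 5630 lower with array weights, 3646 lower with voom, 2181 higher and 4745 lower with voom and weights per group, 3384 lower with no filter and 967 lower at a mean of 10 CPM. TES was -0.16 without tumours 5 and 6 and 1.14 with all tumours, and ST7 was 0.055 without tumours 2, 3 and 4 and -0.65 with all. The cause was not tested. With the replicate block over tumours 1 to 3 of each group 2 of the 8 genes, CAV1 and CAV2, and 562 of all genes were called higher, against 4 of the 8 and 1244 of all genes in the same tumours with no block. Same-numbered tumours deviated together with correlations of -0.00058, -0.032 and -0.0087. These values show no pairing by number, but 3 tumours per group cannot exclude one. Quantile normalization moved the median of all genes to -0.15. The EV level of CAVIN2 rests on only 11 to 16 reads per tumour.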

Other observations

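The summed level of the 8 caveolar genes was 1861 to 2648 CPM in TAZ-4SA tumours and 449.6 to 529 CPM in EV tumours. CAV1 alone made up 41.3% to 60.8% of that sum in TAZ-4SA tumours and 4.91% to 8.06% in EV tumours. PACSIN2 made up 2.78% to 5.42% in TAZ-4SA tumours and 25.7% to 37.1% in EV tumours. These shares are of CPM and not per transcript length, and were not tested.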
